A study of Mus musculus with 20 samples.

Results

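The assembled copy of the 45S ribosomal RNA gene on mouse chromosome 17 (Rn45s) was followed here through 8 touching restriction intervals at chr17:39979252-39985652 (mm9), out of 50782 in the deposited table. They are all the listed intervals that overlap a window around this copy. The intervals were taken by position, but the window itself was chosen by its read counts, which are among the highest of the table. Levels and shares of reads are therefore given as a description, with no test. DNA methylation was measured in hypothalami of male C57BL/6 mice, an inbred strain, at postnatal day 0 (P0) and postnatal day 21 (P21), in nuclei sorted by staining for NeuN, a nuclear protein of neurons, into neurons and non-neurons. The 4 groups are P0 neurons, P0 non-neurons, P21 neurons and P21 non-neurons, with 5 libraries each, and every library came from a pool of 2 hypothalami. No treatment or allele separates the groups. The assay reads DNA, so the sorted cell types could not be checked against the transcripts that define them.

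The 45S gene encodes the precursor transcript that is cut into the 18S and 28S RNAs of the ribosome and a shorter one, and RNA polymerase I reads it in the nucleolus. Mammalian genomes carry many tandem copies of it on several chromosomes. Some copies are transcribed and others are kept silent, and CpG methylation of the gene is a known mark of silent copies. A genome assembly holds only a fraction of these copies, so reads from any of them can be placed on the assembled one.

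The assay, methylation-specific amplification, cuts CCCGGG sites first with SmaI, which cuts them when unmethylated, and then with XmaI, which cuts the methylated ones. Adaptors join the XmaI ends, so PCR copies a fragment only if both of its flanking sites carried methylation. The 8 intervals span 9 such sites from chr17:39979252 to chr17:39985652, a stretch of 6400 bp, and 7 of the sites are shared by neighbouring intervals. In order of position, interval 1 is chr17:39979252-39981183 (1931 bp), interval 2 is chr17:39981183-39981602 (419 bp), interval 3 is chr17:39981602-39983065 (1463 bp) and interval 4 is chr17:39983065-39983497 (432 bp). Interval 5 is chr17:39983497-39983805 (308 bp), interval 6 is chr17:39983805-39985224 (1419 bp), interval 7 is chr17:39985224-39985469 (245 bp) and interval 8 is chr17:39985469-39985652 (183 bp). Which of them lie in the 18S or 28S part or in a spacer is not given here, because a gene annotation of mm9 was not used. The RefSeq gene table of another build, GRCm38.p6, lists Rn18s-rs5 on chromosome 17, an 18S copy annotated as a pseudogene, between Esp15 and the long non-coding RNA AY036118.

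Levels are given as normalised read counts, in reads per 1000000 reads of the TMM-scaled library size (CPM). A CPM is a relative measure of methylation at the flanking sites and not a percent of molecules. At a gene with many copies, more methylated copies and more copies of the gene cannot be told apart from these counts. Libraries held 5663740 to 9998110 reads, and all 8 intervals were among the 26679 that held enough reads to be tested.

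The unit took a large part of the reads. Over the 20 libraries, 650509 of 147488978 reads (0.441%) fell on these 8 intervals, which make up 0.0158% of the intervals listed. Interval 4 had the highest mean of all 50782 intervals, at 1265 CPM. Interval 3 ranked 5th (932 CPM), interval 1 ranked 46th (551 CPM), interval 5 ranked 49th (545 CPM), interval 2 ranked 62nd (517 CPM) and interval 6 ranked 113th (447 CPM). The last pair were lower, interval 7 at rank 2217 (124 CPM) and interval 8 at rank 2361 (118 CPM).

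Counts depend on interval length, so each interval was also set beside the tested intervals within 20% of its own length. Interval 1 exceeded all 5873 intervals of similar length and had 87.0 times their median of 6.33 CPM. Interval 3 exceeded all 5090 of similar length (66.4 times their median), interval 4 all 2173 (30.4 times) and interval 5 all 1546 (32.0 times). Interval 8, although low within the unit, had 33.7 times the median of intervals of its length, and 1 of 2032 was higher. The smallest excess was at interval 2, with 12.9 times the median and 5 of 2129 intervals higher.

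The high counts ended with the unit. The nearest listed interval before it, chr17:39757985-39759768, lies 219484 bp away and had a mean of 2.28 CPM. The nearest one after it, chr17:40121544-40121914, lies 135892 bp away and had 74.5 CPM, with 97.1 ± 10.2 CPM in neurons at P21 beside 68.4 ± 12.6 CPM in non-neurons of that age (SD, n = 5 each). Further out, chr17:40253024-40254150 had 22.7 CPM and chr17:39530636-39531119 had 94.1 CPM. The latter had a mean of 125 CPM in P0 neurons, where intervals 7 and 8 had 126 CPM each. Both chr17:39602402-39604417 (0.304 CPM) and chr17:40263465-40263621 (1 read in all 20 libraries) were too low to be tested.

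Libraries of one group differed widely in how many reads the unit took. In P0 neurons its share of all reads was 0.283%, 0.602%, 0.586%, 0.403% and 0.404% in replicates 1 to 5. In P0 non-neurons the shares were 0.332%, 0.669%, 0.602%, 0.458% and 0.396%. The highest library had 2.13 times the share of the lowest in P0 neurons and 2.01 times in P0 non-neurons. In P21 neurons the shares were 0.254%, 0.353%, 0.467%, 0.308% and 0.313%, and in P21 non-neurons 0.433%, 0.511%, 0.675%, 0.414% and 0.412%. If every read is taken as independent, counting error was far smaller than these gaps. The exact 95% binomial interval of the lowest share was 0.251% to 0.258%, and that of the highest 0.670% to 0.681%. Such intervals cover the counting error of reads only. The reads carry no molecular identifiers, so PCR copies of a fragment count as separate reads and the intervals can be too narrow.

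Replicates 2 and 3 held the highest shares in all 4 groups. In P0 neurons the lower of the pair had 0.586% and the highest of replicates 1, 4 and 5 had 0.404%. In P21 neurons these values were 0.353% and 0.313%. The labels do not say that a replicate number marks a shared pool, litter or day. Library depth followed this order only in part: replicates 2 and 3 were the deepest pair in 1 of the 4 groups, P21 neurons. For neurons at P0 replicate 2 was deepest and replicate 5 second. Non-neurons of that age had replicate 3 first and replicate 4 second. Among P21 non-neurons replicate 5 was deepest and replicate 3 second. Whether the share of the unit depends on depth was not tested. Group means were 0.456% ± 0.136 in P0 neurons, 0.491% ± 0.141 in P0 non-neurons, 0.339% ± 0.0798 in P21 neurons and, for non-neurons at P21, 0.489% ± 0.112 (SD, n = 5 each). With replicates 2 and 3 left out these means were 0.363%, 0.396%, 0.292% and 0.420%.

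**Figure D1:**
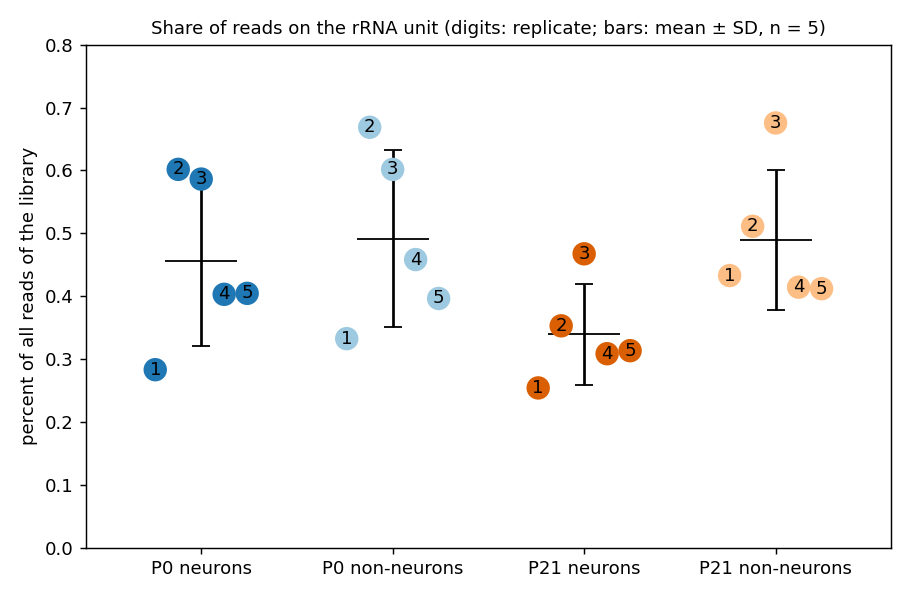
Percent of all reads of each library that fell on the 8 intervals of the rRNA unit, by group. Circles are libraries with their replicate number, and bars are the mean and SD of 5 libraries; replicates 2 and 3 are the highest pair in every group, and shares run from 0.254% to 0.675%.

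The intervals of the unit varied more between libraries than intervals of similar depth. The coefficient of variation of CPM within groups, pooled over the 4 groups, was 51.01% at interval 1, 32.7% at interval 2, 29.3% at interval 3, 26.9% at interval 4, 27.7% at intervals 5 and 6, 24.2% at interval 7 and 20.8% at interval 8. Over the 5334 other tested intervals with a mean of at least 50 CPM the median was 10.1%, and 95% of them lay below 15.7%. Only 45 of these 5334 varied more than interval 8, and 8 of them more than interval 1. Among the 107 others with at least the mean CPM of interval 6 the highest value was 25.1%, which intervals 1 to 6 all exceeded.

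**Figure D2:**
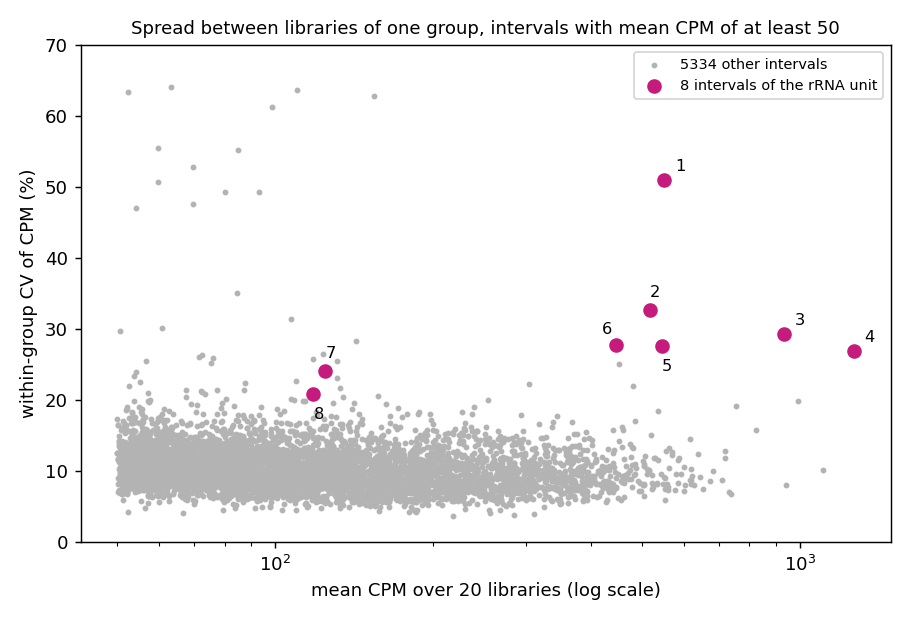
Within-group coefficient of variation of CPM (%) against mean CPM (log scale) for the 8 intervals of the rRNA unit, numbered, and 5334 other intervals with a mean of at least 50 CPM. Intervals 1 to 6 stand above all other intervals of their depth, whose median is near 10%.

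Interval 1, the longest, varied most. P0 neurons had 347, 1021, 772, 450.3 and 447 CPM in replicates 1 to 5, and P0 non-neurons 355, 929.9, 617, 496 and 371 CPM. At P21 neurons had 393, 564, 932, 282 and 335 CPM and non-neurons 356.5, 614, 1085, 269.8 and 384 CPM. In each group replicates 2 and 3 were the highest, and the ranges of all 4 groups overlapped. Replicates 2 and 3 were likewise the highest pair at all 8 intervals in P0 neurons, at 7 in P0 non-neurons, at 5 in P21 neurons and at 3 in P21 non-neurons. Intervals 1 and 3 showed this order in all 4 groups. So did 12 of the 26671 tested intervals outside the unit (0.0450%), and 9 of the 5334 with a mean of at least 50 CPM (0.169%). The pair of replicates 2 and 3 was picked from the values of this same unit, and other pairs were not counted. These counts therefore cannot show that the order is particular to the unit.

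The 8 intervals moved together from library to library. As deviations of log2 CPM from the group mean, over 20 libraries that also share depth and scaling, their 28 pairwise correlations ran from 0.574 to 0.993 with a median of 0.805. The closest pair was intervals 4 and 5 (r = 0.993), which share a site, and the loosest was intervals 5 and 6 (r = 0.574), which share one as well. Outside the unit, 13331 tested intervals with above-median counts were ranked by the correlation of their log2 CPM with that of the whole unit. The 5 most alike, over 20 libraries, were chr7:16573948-16574998 (r = 0.765), chr12:114148522-114149997 (0.764), chr12:109269191-109270166 (0.757), chr5:142511861-142512975 (0.755) and chr16:92606645-92607073 (0.747). Their within-group variation was small, from 8.64% to 12.2%, and each had its lowest group mean in P21 neurons. The unit also had its lowest mean there, so this follows in part from how the 5 were chosen.

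**Figure D3:**
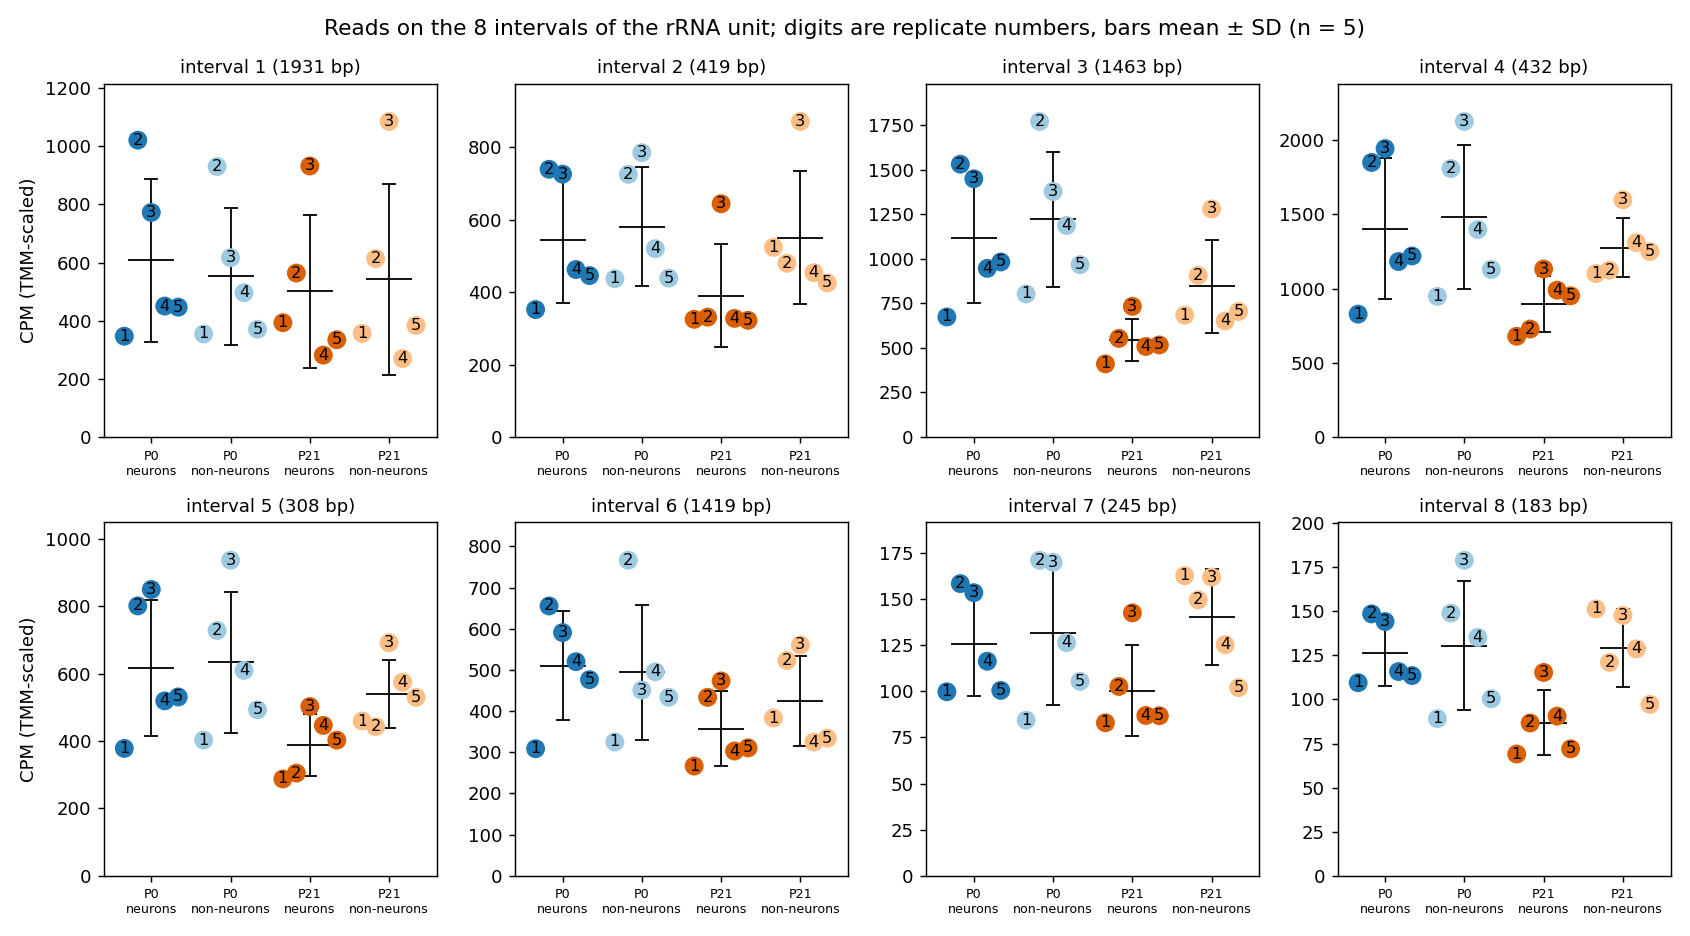
CPM of each library at the 8 intervals of the rRNA unit, one panel per interval, by group. Circles carry the replicate number and bars are the mean and SD of 5 libraries; at interval 3 P21 neurons lie between 411 and 734 CPM and P0 neurons between 674 and 1531 CPM.

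At all 8 intervals the CPM ranges of the groups overlapped in each of the 4 comparisons between 2 groups. Over all tested intervals the ranges did not overlap in 9.40% for cell type at P0, 23.8% at P21, 41.6% for age in neurons and 35.5% in non-neurons.

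The cell types were compared at birth first, which asks whether the unit already differed between the cell types. None of the 8 intervals was called at P0. In edgeR's quasi-likelihood test, with Benjamini-Hochberg adjustment over all tested intervals, the lowest adjusted p was 0.862. The numbers at an unadjusted p under 0.05, with DESeq2 and with limma-voom were 0, 0 and 0. Over all tested intervals 9.78% were called in this comparison. At interval 4 P0 neurons had 828, 1851, 1944, 1183 and 1220.3 CPM and P0 non-neurons 948, 1809, 2127, 1399 and 1129 CPM. The groups overlapped almost fully, and the log2 fold change was -0.08 with a 95% interval from -0.60 to 0.45. At interval 8, the least variable one, the 95% interval ran from -0.43 to 0.33. At interval 1, the most variable one, it ran from -0.79 to 1.06. Differences of up to these sizes are thus not excluded. The median log2 fold change was -0.06 over the 8 intervals and 0.01 over all tested intervals.

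At P21 all 8 intervals had lower means in neurons than in non-neurons, and 1 passed the test. Interval 8 had 69.0, 86.7, 115.3, 90.6 and 72.0 CPM in P21 neurons and 151.3, 121, 147.6, 128.7 and 97.2 CPM in P21 non-neurons. The highest neuronal library, replicate 3, lay above the lowest non-neuronal one, replicate 5, and the other libraries of the 2 groups did not cross. The log2 fold change of interval 8 was -0.57 ± 0.18 (SE; edgeR adjusted p = 0.0177). This call was lost without P21 non-neuron replicate 1 (adjusted p = 0.0515) or replicate 3 (adjusted p = 0.0528), and after removal of each library's trend with interval length (-0.22; adjusted p = 0.311).

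The share of called intervals in the whole table was 35.8% for this comparison, and 15.0% were called lower in neurons, beside 1 of the 8. The 8 intervals share sites, so this count is not read as a difference from the whole table. The other log2 fold changes at P21 ran from -0.63 at interval 3 (adjusted p = 0.0720) to -0.11 at interval 1 (adjusted p = 0.871), which was above 0 without P21 neuron replicate 4 (0.04) or 5 (0.0029) or without P21 non-neuron replicate 3 (0.31). Interval 4 had 679, 728, 1132, 989.9 and 952 CPM in P21 neurons and 1102, 1124, 1599, 1310.1 and 1251 CPM in P21 non-neurons. Only replicate 3 of the neurons reached into the non-neuronal range, and the log2 fold change was -0.51 ± 0.25 (SE; adjusted p = 0.125). The members' median of -0.49 stood beside -0.06 over all tested intervals. The number called differed between alternatives, given here with the number called among all tested intervals. It was 0 without P21 non-neuron replicate 1 (8804 of 27041) or 3 (8870 of 27069). It stayed at 1 with no filter (9554 of 44545). With the length trend removed it was 1 as well (10760 of 26679), but this was interval 3 in place of interval 8. DESeq2 called 2 (9988 of 26679). It was 4 without P21 neuron replicate 3 (9102 of 27076) and 4 with library totals alone (10690 of 26679). A fit of the P21 libraries alone called 5 (9351 of 25727). Upper-quartile factors called 6 (13147 of 26679), as did limma-voom (9850 of 26679). With a term for replicate number (a replicate block) 6 were called over all libraries (10257 of 26679) and 7 within age (11068 of 26679). The fold change was lower in neurons in every called case. Upper-quartile factors also moved the median of all tested intervals to -0.25 on the log2 scale.

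**Figure D4:**
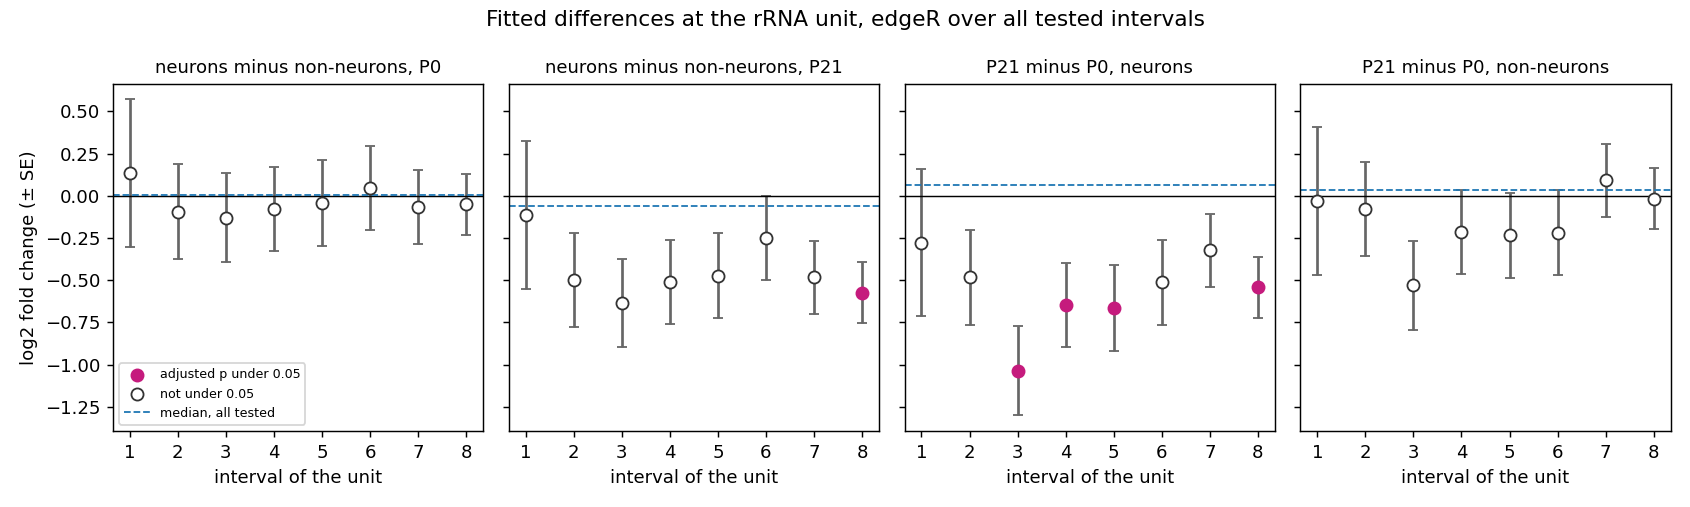
Log2 fold changes with standard errors at intervals 1 to 8 of the rRNA unit in 4 comparisons, from one edgeR fit over all tested intervals. Filled points have an adjusted p under 0.05 and dashed lines mark the median of all tested intervals; calls are found for 1 interval in the cell type comparison at P21 and for 4 in neurons with age.

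Between P0 and P21, 4 of the 8 intervals fell in neurons. Interval 3 fell most, to 0.488 of its P0 level. P0 neurons had 674, 1531, 1449, 947 and 982 CPM at interval 3, and P21 neurons had 411, 554, 734, 508 and 517 CPM. P21 replicate 3 was above P0 replicate 1, and otherwise every P21 library was below every P0 library. The log2 fold change was -1.04 ± 0.26 (SE; edgeR adjusted p = 0.00305), and it was called in all 12 other settings and without each of the 20 libraries in turn, with values from -1.36 to -0.83.

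Intervals 4, 5 and 8 fell by less. Interval 4 had a mean of 1405 ± 476 CPM in P0 neurons and 896 ± 189 in P21 neurons (SD, n = 5 each). Its log2 fold change was -0.65 ± 0.25 (SE; adjusted p = 0.0343 in edgeR's test). Interval 5 went from 616 ± 201 to 389 ± 91.9 CPM (-0.66 ± 0.25, SE; adjusted p = 0.0337). Interval 8 went from 126 ± 18.5 to 86.7 ± 18.5 CPM (-0.54 ± 0.18, SE; adjusted p = 0.0157), with P0 neurons at 109.5, 148.6, 144.2, 115.8 and 113.6 CPM. Each of these groups overlapped with its counterpart. Without P0 neuron replicate 2 or 3, or P21 neuron replicate 1 or 2, the calls at intervals 4 and 5 were lost, with log2 fold changes from -0.59 to -0.50, and 2 of the 8 intervals were called. Interval 5 was also lost without P21 neuron replicate 5 (-0.68; adjusted p = 0.0515), and interval 4 after removal of the length trend (-0.44; adjusted p = 0.131). With library totals alone only interval 3 was called, and this scaling moved the median of all tested intervals from 0.06 to 0.26.

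Calls in neurons with age were common throughout the table: 57.3% of tested intervals changed and 26.3% fell. The 4 calls of 8 were all falls, so the 26.3% that fell is the like share to set beside them. The 8 intervals share sites and reads of the same copies, so these are not 4 separate observations. Their count is not read as a difference from the whole table. Intervals 1, 2, 6 and 7 had log2 fold changes of -0.28, -0.48, -0.51 and -0.32 and did not pass the test. Interval 1 ran from -0.63 to -0.0089 with 1 library left out. Interval 2 was called with limma-voom (adjusted p = 0.0400) and without P21 neuron replicate 3 (-0.74; adjusted p = 0.0269). Interval 6 was called with limma-voom (adjusted p = 0.0214), with DESeq2 (adjusted p = 0.0487) and without P0 neuron replicate 1 (-0.65; adjusted p = 0.0332).

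In non-neurons no interval of the unit was called with age, beside 54.3% of all tested intervals. At an unadjusted p under 0.05 there were 0, with DESeq2 0 and with limma-voom 1. Interval 3 came nearest: P0 non-neurons had 803, 1771, 1378, 1187 and 967 CPM and P21 non-neurons 684, 907, 1280.1, 651 and 705 CPM. P21 replicates 2 and 3 lay above the lowest P0 library, replicate 1, and the log2 fold change was -0.53 ± 0.26 (SE; adjusted p = 0.0989). Interval 3 was the 1 interval called with limma-voom (adjusted p = 0.0194), after removal of the length trend (-0.81; adjusted p = 0.0150) and without P21 non-neuron replicate 3 (-0.74; adjusted p = 0.0272). The other log2 fold changes ran from -0.23 at interval 5 to 0.09 at interval 7, and 5 of them turned to rises, none of them called, when library totals alone were used.

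Whether the cell types differed in their change with age was tested by the interaction. All 8 estimates were negative, from -0.52 at interval 8 to -0.25 at interval 1, but none was called, and the lowest adjusted p was 0.211 at interval 8. The estimate at interval 1 was above 0 without P0 neuron replicate 2 (0.02) or P21 non-neuron replicate 3 (0.18). With DESeq2, with limma-voom and at an unadjusted p under 0.05 there were 0 calls as well, and over all tested intervals 14.1% were called. In edgeR's main fit, which takes no account of replicate numbers, the change with age was not shown to differ between the cell types. The 95% interval of the interaction at interval 3 ran from -1.29 to 0.28 in that fit. With a replicate block over all libraries 3 of the 8 were called, beside 4359 of 26679 tested intervals. With a replicate block within age 7 were called, beside 5128 of 26679.

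The reads were spread over the unit in proportions that no library scaling can change, and in these interval 3 was lower at P21. Such shares were not computed outside the unit, so they have no background. It held 21.8%, 22.2%, 21.9%, 21.9% and 22.8% of the unit's reads in P0 neurons and 16.3%, 17.8%, 15.7%, 16.8% and 17.2% in P21 neurons. These ranges do not overlap. In non-neurons it held 23.3%, 25.1%, 20.7%, 23.9% and 24.0% at P0 and 17.9%, 20.8%, 20.01%, 16.97% and 18.4% at P21, where P0 replicate 3 and P21 replicate 2 just crossed. The mean share went from 22.1% to 16.8% in neurons and from 23.4% to 18.8% in non-neurons, and whether these steps differ was not tested.

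Ratios of touching intervals restate the same counts and are not separate support. The log2 ratio of interval 3 to interval 2 went from 1.03 ± 0.0746 in P0 neurons to 0.52 ± 0.241 in P21 neurons and from 1.06 ± 0.206 to 0.62 ± 0.206 in non-neurons (SD, n = 5 each). Of the 7 touching pairs of the unit, this was the 1 pair whose ratios did not overlap between P0 and P21 neurons. On its other side, the log2 ratio of interval 4 to interval 3 ran from 0.274 to 0.424 in P0 neurons. In P21 neurons it ran from 0.395 to 0.962, so these ranges overlapped. Among the 7206 touching pairs of tested intervals, 27.6% did not overlap in that comparison, and 42.2% of the 647 pairs with at least 50 CPM on both sides. In the other 3 comparisons 0 of the 7 pairs were separated, beside 5.02% of all touching pairs between the cell types at P0, 16.2% between them at P21 and 22.5% between the ages in non-neurons. For pairs with at least 50 CPM on both sides these shares were 11.0%, 21.8% and 39.1%. The ratio of interval 5 to interval 4 was the steadiest, at -1.18 ± 0.0304 in P0 neurons, -1.21 ± 0.0478 in P21 neurons, -1.22 ± 0.0531 in P0 non-neurons and -1.25 ± 0.0603 in P21 non-neurons.

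At P21 the proportions also differed between replicates. Interval 4 held 32.6% and 31.8% of the unit's reads in replicates 4 and 5 of P21 neurons, above 27.0%, 23.5% and 24.2% in replicates 1 to 3. In P21 non-neurons replicates 4 and 5 had 34.1% and 32.7%, and replicates 1 to 3 had 28.8%, 25.8% and 25.0%. Interval 1 went the other way in neurons, with 9.28% and 11.2% in replicates 4 and 5 and 15.6%, 18.2% and 19.9% in replicates 1 to 3. In P21 non-neurons interval 1 held 7.03% and 10.02% in replicates 4 and 5 and 9.33%, 14.1% and 16.96% in replicates 1 to 3, so replicate 1 was below replicate 5 there. At P0 interval 4 held 26.8% to 29.3% in neurons and 25.7% to 32.0% in non-neurons, with replicates 4 and 5 inside the range of the others.

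**Figure D5:**
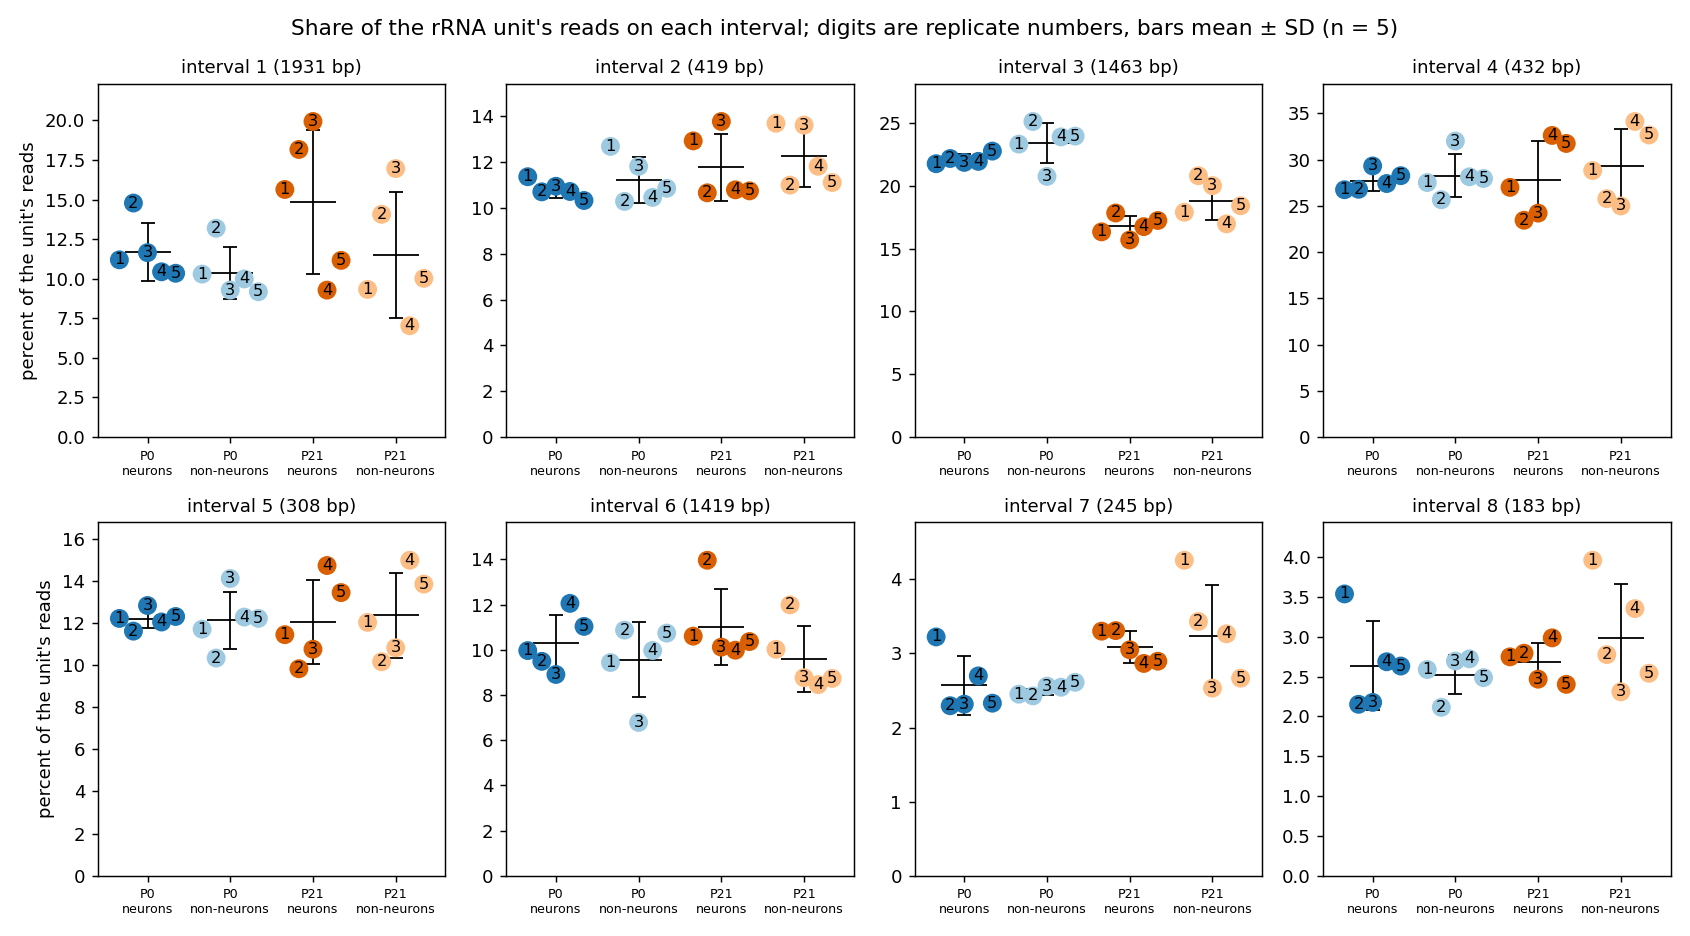
Share of the unit's reads that fell on each of its 8 intervals, in percent, by group, one panel per interval. Circles carry the replicate number and bars are the mean and SD of 5 libraries; interval 3 holds 21.8% to 22.8% in P0 neurons and 15.7% to 17.8% in P21 neurons.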

How the data were processed

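Reads per SmaI/XmaI interval in 20 libraries (4 groups of 5) were taken as deposited raw counts; their unit was read from the values, which are whole and sum to unequal library totals. Per the submitters' processing notes, the tools were Bowtie 0.12.9, FastQC 0.10.1 and cutadapt, on the mm9 build. The counting step, and what was done with reads that match more than one copy, are not given in the sources used here. Library columns were matched to libraries by age, cell type letter and replicate number, with 0 columns left over. Intervals were filtered with filterByExpr (minimum count 10, total 15), leaving 26679, scaled by TMM and fitted with 1 mean per group over all libraries in edgeR 4.0.16 (glmQLFit, robust; glmQLFTest; R 4.3.3). P-values were adjusted over all tested intervals, with a threshold of 0.05. Each standard error is the size of the log2 fold change over the square root of F. The fits were tested on simulated counts. Interval lengths are end minus start. Ratios of touching intervals used a pseudocount of 1. DESeq2 1.42.0, limma-voom (limma 3.58.1), other scalings and filters, a length correction (lowess, span 0.2), a replicate block and left-out libraries were alternatives. Libraries of a group differed beyond the counting error of independent reads (chi-square per degree of freedom 2.00 to 9.31 over 40 pairs). The labels call the 5 libraries of a group independent. The members and lists were chosen with earlier results of these data known. The intervals named are all 8 of the unit, the 3 listed on either side, and the 5 most correlated with it. No sequence of the unit was used here.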

Additional observations from a re-analysis of the deposited data

Results flagged for a closer look

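Of 36 sets of 5 libraries (8 intervals and the share of the whole unit, in 4 groups), 2 had a library far from the other 4, measured as the gap to the nearest library over the whole range. Chance flags about 1 in 20 such sets, and these sets are not independent. Both were at interval 2 and both were replicate 3. In P21 neurons replicate 3 had 644 CPM and the others 322 to 331 CPM (gap over range 0.973). In P21 non-neurons replicate 3 had 871 CPM and the others 425 to 524 CPM (gap over range 0.779). P21 replicate 3 also held the highest share of reads on the unit in both cell types, 0.467% and 0.675%. The cause was not tested.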

How the results depend on the processing

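At P0 the number of called intervals was 0 of 8 under every alternative. Numbers called among all tested intervals follow in brackets. For cell type at P21, where 1 was called, the number was 6 with upper-quartile factors (13147 of 26679) and 4 with library totals alone (10690 of 26679). It was 2 with DESeq2 (9988 of 26679), 6 with limma-voom (9850 of 26679) and 5 with only the compared groups (9351 of 25727). When 1 library was left out it was 0 to 4. For age in neurons, where 4 were called, it was 1 with library totals alone (15830 of 26679) and 2 with no filter (17535 of 44545). It was 5 with DESeq2 (15371 of 26679), 6 with limma-voom (15268 of 26679) and 2 to 5 with 1 library left out. With the length trend removed it was 4 (15054 of 26679), with interval 6 called in place of interval 4. For age in non-neurons, where 0 were called, it was 1 with limma-voom (14281 of 26679) and 1 with the length trend removed (13878 of 26679). With 1 library left out it was 0 to 1. For the interaction it stayed at 0 in all of these. Replicates 1, 4 and 5 alone, a choice made after seeing the data, gave 3 calls between the cell types at P21 (7702 of 26780). They gave 3 in neurons with age (12484 of 26780), 1 in non-neurons with age (12038 of 26780) and 1 as an interaction (2837 of 26780). The 3 in neurons were not all among the 4 of the main fit. Intervals 4 and 5 were no longer called (log2 fold changes -0.300 and -0.327), and interval 2 was called (-0.369). The causes were not tested.

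A check over all tested intervals did not show that the replicate numbers pair the samples. Correlations of same-numbered libraries ran from 0.0451 to 0.210 for cell type at P0 and from -0.00701 to 0.322 at P21. Between the ages they ran from -0.0672 to 0.105 in neurons and from -0.0831 to 0.123 in non-neurons. In this order 0, 1, 1 and 0 of 5 numbers correlated best with their own. Low correlations cannot exclude a pairing, since the deviations also hold differences between libraries that do not come from a pool. With a replicate block over all libraries 6 were called between the cell types at P21, beside 10257 of 26679 tested intervals. Between the ages 7 were called in neurons (15796 of 26679) and 1 in non-neurons (15014 of 26679), and 3 for the interaction (4359 of 26679). With a replicate block within age the numbers were 7 at P21 (11068 of 26679) and 7 for the interaction (5128 of 26679).

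Some uncalled log2 fold changes changed sign. For cell type at P0, interval 6 was -0.0477 with upper-quartile factors, -0.0152 with library totals alone and -0.0287 with the length trend removed, and interval 8 was 0.0570 with the length trend removed. With replicates 1, 4 and 5 alone, interval 7 was 0.000659 and interval 8 was 0.0599 for cell type at P0, and interval 1 was 0.00500 for cell type at P21. In non-neurons with age, interval 8 was 0.00606 with upper-quartile factors, 0.00483 with limma-voom, 0.0141 with the replicate block, 0.214 with library totals alone and 0.208 with replicates 1, 4 and 5. In that comparison library totals alone gave 0.191 at interval 1, 0.146 at interval 2, 0.0116 at interval 4 and 0.0106 at interval 6, removal of the length trend gave 0.0843 at interval 2 and -0.197 at interval 7, and replicates 1, 4 and 5 gave 0.000841, 0.0681 and 0.0472 at intervals 2, 4 and 5.

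With 1 library left out, age in non-neurons ran from -0.457 to 0.237 at interval 1, -0.313 to 0.0533 at interval 2, -0.0335 to 0.204 at interval 7 and -0.130 to 0.123 at interval 8. Cell type at P0 ran from -0.136 to 0.403, -0.228 to 0.0399, -0.270 to 0.0440, -0.222 to 0.0888, -0.186 to 0.141, -0.0728 to 0.260, -0.190 to 0.0477 and -0.159 to 0.0930 at intervals 1 to 8. Interval 1 ran from -0.462 to 0.314 for cell type at P21 and from -0.595 to 0.180 for the interaction. Of 496 log2 fold changes of members under the other settings 411 kept direction and side of the threshold, as did 742 of 800 with 1 library left out. The lowest count behind a member in any library was 545 reads.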

Other observations

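Set side by side by replicate number, which the labels do not describe as a shared pool, neurons and non-neurons of P21 gave close ratios at the unit. The neuronal share of the non-neuronal CPM of the whole unit was 0.658, 0.712, 0.731, 0.790 and 0.783 for replicates 1 to 5. It was below 1 in 5 of 5 numbers at each of intervals 2 to 8 and in 3 of 5 at interval 1. At interval 3 the ratios ran from 0.573 to 0.780. At P0 the ratio for the whole unit ran from 0.868 to 1.07, and it was below 1 in 4 of 5 numbers. These ratios were looked at after the values were seen and carry no test.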
